A study of Mus musculus with 24 samples.

Results

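The genes described here are 10 mouse scavenger receptors and lipid handling genes: the receptors Cd36, Scarb1, Scarb2, Msr1, Marco, Olr1, Cd68 and Lrp1, the lipase gene Lpl and the lipid droplet gene Plin2. They were chosen by name, with no threshold on their values, and matched to the rows of the deposited count table by Ensembl ID. All 10 were found among the 56941 gene IDs of the table, and 10 of 10 passed the filter on low counts that left 14757 genes for testing. The samples were bone marrow-derived macrophages (BMDM), grown from mouse femurs and tibiae in medium conditioned by L929 cells and then moved to plates without that supplement. The 3 genotypes were wild type (WT), a line lacking the histone deacetylase gene Hdac9 (KO), and a line with a cis-regulatory element deleted (dCIS), which the study's title ties to HDAC9 expression. Each genotype was left untreated or given lipopolysaccharide (LPS), a cell wall component of Gram-negative bacteria sensed through TLR4, at 100 ng/ml for 6 h, and each of the 6 groups held 4 libraries. Stimulated and untreated cells were both kept without fetal calf serum during that time, so all groups lacked this source of lipoproteins. Strain, age and sex of the mice, how each line was made and how many animals stand behind a group were not stated in the labels. The labels also do not say whether the 4 libraries of 1 group are different animals or cultures, and p-values therefore reflect only library-to-library spread, which may be technical.

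Scavenger receptors bind modified lipoproteins, bacteria, dying cells and other polyanionic or lipid ligands and carry them into the cell. Unlike the LDL receptor, several of them are not shut down when the cell fills with cholesterol, which is how macrophages that take up modified LDL become foam cells. The lipid that enters is cut by lipases, passed through endosomes and lysosomes, and stored as cholesteryl esters and triglycerides in droplets.

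Levels are given as CPM, counts divided by library size, with the sizes scaled by TMM, a method that sets the typical gene as equal between libraries. A fold change is on the log2 scale, and a gene is called changed where the adjusted p (edgeR's quasi-likelihood test, Benjamini-Hochberg over all 14757 tested genes) was under 0.05. Library totals ran from 14636058 to 19181707 counts. Hdac9 stood at 11.2 ± 1.46 CPM (SD, n = 4) in untreated WT, 1.04 ± 0.218 in KO and 15.6 ± 2.23 in dCIS, and at 12.3 ± 2.83, 0.302 ± 0.155 and 14.6 ± 5.26 after LPS, so the KO label matched its gene. All 8 macrophage markers examined passed the filter, with a summed level of 13600 to 24200 CPM per library. None of the markers of adipocytes (5 examined, another source of Lpl, Cd36 and Plin2), mast cells (4), lymphocytes (6) and dendritic cells (5) passed it. Of 6 neutrophil markers 2 passed (summed level 1.06 to 4.22 CPM), and of 5 osteoclast markers 3 passed (7.81 to 20 CPM). The fibroblast and endothelial markers, 3 of 7 of which passed, summed to 1.25 to 2.97 CPM in untreated libraries and 16.5 to 24.7 CPM after LPS. In WT the means of Pdgfrb, Pecam1 and Cdh5 went from 0.142, 1.8 and 0.141 CPM to 8.34, 6.73 and 3.29 CPM. Those of Col1a1, Col1a2, Col3a1 and Dcn were at most 0.138 CPM in any group. The part of these markers in the LPS results was not tested. In dCIS after LPS, libraries 3 and 4 had 17628 and 15997 detected genes, against at least 20458 in the other LPS libraries.

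Levels per kilobase were divided by the bases that any annotated exon of a gene covers, over all its transcripts. That length can exceed the one of the transcript expressed, so the order of genes on this scale is approximate. On this scale Cd68 had the highest level of the 10 genes in untreated WT cells, at 1500 ± 87.8 CPM per kb (SD, n = 4). Cd36 followed at 340 ± 38.7 and Lpl at 329 ± 50.4 CPM per kb, with 3590 bases counted for Cd36 and 10478 for Lpl. Before that division Cd36 stood at 1220 and Lpl at 3449 CPM, so their order rests on the lengths used. Plin2 stood at 194 ± 41.9, Marco at 89.5 ± 17, Lrp1 at 58.1 ± 3.95 and Msr1 at 49.7 ± 8.85 CPM per kb. Lrp1 and Msr1 lay within the spread of their libraries, which does not cover an error in length. Scarb2 (16.5 ± 1.91) and Scarb1 (11.8 ± 1.09) were lower, and Olr1 was close to absent at 0.0918 ± 0.0737 CPM per kb. After LPS the order on this scale in WT began with Cd68 (1830 ± 113), Cd36 (366 ± 43.4), Lpl (291 ± 49.4) and Plin2 (286 ± 29.4 CPM per kb). Msr1 rose past Lrp1 in that order, to 195 ± 7.88 against 36 ± 6.4 CPM per kb, and Scarb2 (31.8 ± 0.877) stood apart from Scarb1 (4.36 ± 0.348). The spread between libraries differed widely by gene: the coefficient of variation within a group was 5.85% to 9.16% for Cd68, but 19% to 47.7% for Marco and 4.04% to 43% for Msr1.

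**Figure D1:**
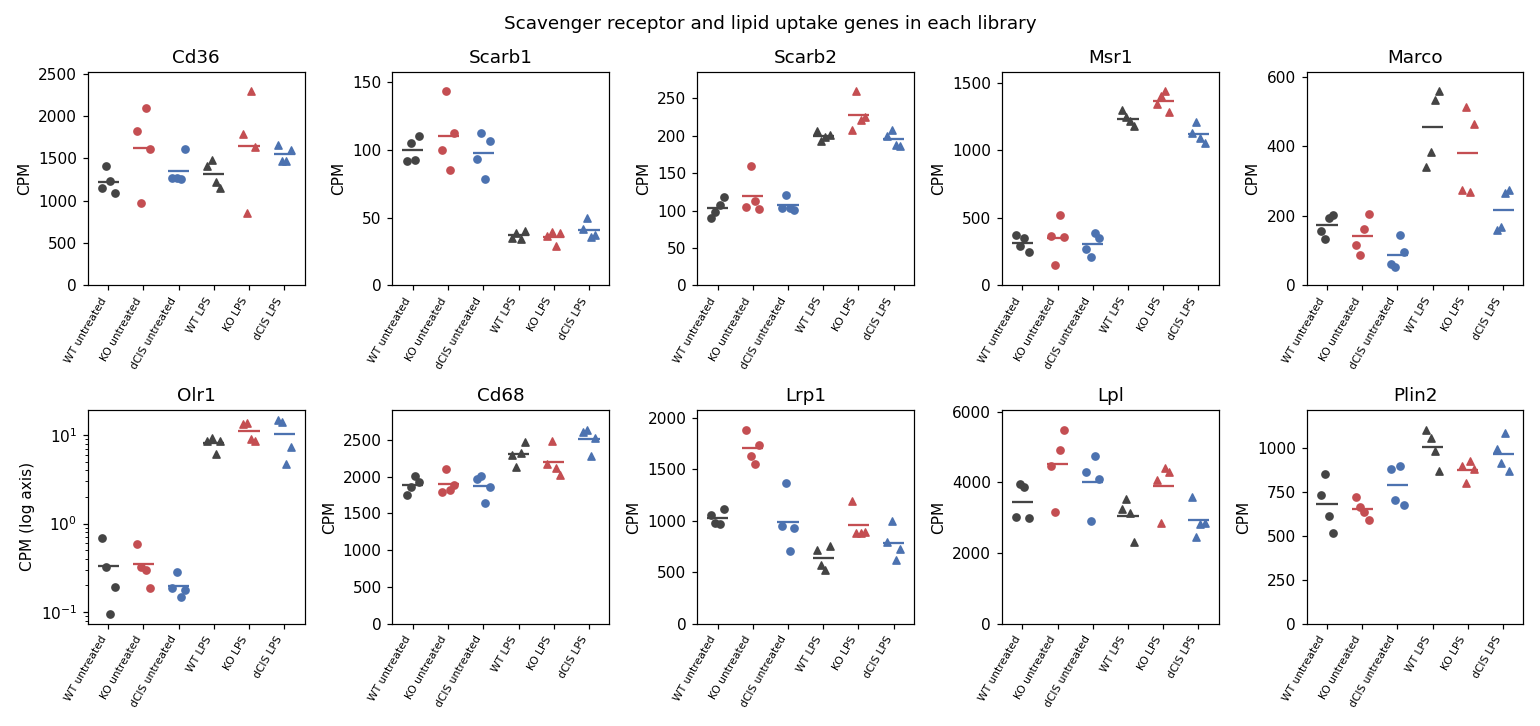
Level of each of the 10 genes in CPM (vertical axes, linear from 0 except for Olr1, which has a log axis) in the 24 libraries, by group; circles are untreated and triangles LPS libraries, and bars mark the group mean. Msr1, Olr1 and Scarb2 are higher in all LPS groups and Scarb1 is lower, with no overlap; Lrp1 is highest in untreated KO cells, at 1553 to 1884 CPM.

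LPS against untreated cells. After LPS, WT macrophages had more transcript of the class A receptors Msr1 and Marco, of the lectin-like receptor Olr1 and of the lysosomal receptor Scarb2, and less of the HDL receptor Scarb1 and the endocytic receptor Lrp1, relative to the typical gene. Cd68 and Plin2 were also called higher with TMM, by 0.29 and 0.56 on the log2 scale, but both lay lower after LPS when libraries were scaled by their totals alone (-0.52 and -0.25). In all, 6 of the 10 genes were called higher and 2 lower in WT, where 61.4% of all tested genes were called (30.4% higher and 31.0% lower). Untreated and LPS libraries did not overlap for 8 of 10 genes in WT (61.8% of all genes), 7 in KO (59.0%) and 6 in dCIS (51.4%). With library totals the split in WT was 2 higher and 5 lower, and with upper quartile scaling 4 higher and 3 lower. Of all 14757 tested genes, 11592 and 9457 were called in WT under these scalings, against 9055 with TMM. In KO cells 5 were called higher and 2 lower against a background of 61.6% (30.9% and 30.7%), and in dCIS cells 6 higher and 2 lower against 64.7% (31.3% and 33.3%). The median log2 change of the 10 genes was 0.43 in WT, 0.32 in KO and 0.36 in dCIS, beside 0.003, 0.02 and -0.05 over all tested genes. With so many genes called, the count of calls among the 10 is not a result about them, and the sizes for the single genes follow. In bulk RNA, fewer cells of a type and less RNA per cell cannot be told apart.

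Msr1 encodes scavenger receptor A, the receptor of acetylated and oxidized LDL that first defined the family. Its level was 372.8, 290.1, 349.5 and 249.3 CPM in the untreated WT libraries and 1300, 1247, 1216 and 1182 CPM after LPS. Every LPS library lay far above every untreated one, and the spread was much narrower after LPS, with a coefficient of variation of 4.04% against 17.8%. The log2 change was 1.97 (SE 0.224, edgeR adjusted p = 2.16e-08) in WT, 1.97 (adjusted p = 2.21e-08) in KO and 1.87 (adjusted p = 4.86e-08) in dCIS. Untreated KO libraries ranged from 153.1 to 519.9 CPM and untreated dCIS libraries from 213.4 to 392 CPM, while after LPS these groups spanned 1283 to 1439 and 1056 to 1214 CPM. The rise also passed with library totals, at 1.16 in WT, 1.15 in KO and 1.11 in dCIS.

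Marco, the other class A receptor here, binds bacteria and particles through its C-terminal domain. In untreated WT libraries it stood at 156.9, 133.7, 194.7 and 203.5 CPM, and after LPS at 341.5, 382.5, 533.4 and 557.6 CPM. Both sets were clearly apart, and in both the libraries numbered 3 and 4 were above those numbered 1 and 2. The log2 rise was 1.40 (SE 0.292, edgeR adjusted p = 0.000167) in WT, 1.42 (adjusted p = 0.000148) in KO and 1.29 (adjusted p = 0.000403) in dCIS. Scaled by library totals it was 0.60, 0.59 and 0.56, and no longer called (adjusted p = 0.0615, 0.0645 and 0.0806).

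Olr1 encodes LOX-1, the lectin-like receptor for oxidized LDL best known from endothelium. It was nearly silent in untreated cells, with 15, 7, 2 and 4 counts in the WT libraries, or 0.697, 0.326, 0.0953 and 0.194 CPM. After LPS the same genotype gave 106, 121, 78 and 106 counts, or 8.66, 9.4, 6.12 and 8.57 CPM. No untreated library of any genotype exceeded 0.697 CPM, and no LPS library fell under 4.76 CPM. Of the 10 genes it had the largest change, 4.60 on the log2 scale in WT (SE 0.405, edgeR adjusted p = 1.78e-10), 4.98 in KO (adjusted p = 2.69e-11) and 5.63 in dCIS (adjusted p = 1.22e-11). With 2 to 15 counts per untreated library, Olr1 passed the filter on low counts through its LPS libraries. A rise was thus a condition of its being tested. The size in WT leans on few counts: without untreated library 1, which holds 15 of them, it was 5.26. Even so the level after LPS, 2.29 ± 0.4 CPM per kb in WT, remained below that of the other receptors, Scarb1 included.

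Promoter sequence from RefSeq (build GRCm38.p6, not the build of the counts) was at hand for 7 of the 10 genes: Cd36, Marco, Olr1, Scarb2, Cd68, Lrp1 and Plin2. In the 250 bases before each annotated transcription start, both strands were searched for the core of the macrophage factor PU.1 (GAGGAA), the AP-1 site (TGANTCA), the E-box (CACGTG) and the core of nuclear receptor sites (AGGTCA). The PU.1 core was found in 3 of 7 windows, against 23.3% of 32851 windows of the same length, and the AP-1 site in 2 of 7, against 6.75%. The nuclear receptor core occurred in 3 of 7 windows (Cd36, Olr1 and Plin2), against 14%, and the E-box in 0 of 7, against 6.02%. The windows that hold the PU.1 core are printed to show how these letters lie in Marco (2.64-fold higher after LPS in WT with TMM, not called with library totals), in Olr1 (24.3-fold) and in Cd68. Capitals mark the matches, read 5′ to 3′ on the gene's strand; no letters overlap between motifs.
Marco, chr1:120505025-120505274, minus strand: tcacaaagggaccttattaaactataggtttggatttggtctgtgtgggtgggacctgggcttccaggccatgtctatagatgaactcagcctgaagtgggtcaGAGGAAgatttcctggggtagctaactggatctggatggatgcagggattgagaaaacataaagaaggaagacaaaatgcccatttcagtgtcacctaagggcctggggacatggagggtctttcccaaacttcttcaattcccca
Olr1, chr6:129507166-129507415, minus strand: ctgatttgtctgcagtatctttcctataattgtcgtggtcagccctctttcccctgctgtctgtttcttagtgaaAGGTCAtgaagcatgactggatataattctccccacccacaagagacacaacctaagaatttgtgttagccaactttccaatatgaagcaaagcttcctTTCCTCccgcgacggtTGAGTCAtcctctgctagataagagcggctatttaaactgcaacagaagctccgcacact
Cd68, chr11:69666171-69666420, minus strand: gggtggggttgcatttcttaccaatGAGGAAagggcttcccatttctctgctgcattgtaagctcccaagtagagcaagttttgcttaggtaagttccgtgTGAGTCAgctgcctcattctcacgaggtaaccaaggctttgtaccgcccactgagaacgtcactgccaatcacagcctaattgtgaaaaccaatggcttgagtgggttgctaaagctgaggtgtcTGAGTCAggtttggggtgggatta
Marco has a single match, the PU.1 core at -146 from the start. Olr1 has a nuclear receptor core at -175, a PU.1 core on the other strand at -76 and an AP-1 match at -60, while Cd68 has the PU.1 core at -225 and AP-1 matches at -149 and -24. These are matches of letters, not bound sites, and a window without a match says nothing about a factor.

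The class B receptors did not move together. Cd36, which takes up oxidized LDL and long-chain fatty acids, stood at 1148, 1411, 1228 and 1094 CPM in untreated WT libraries and at 1405, 1483, 1221 and 1149 CPM after LPS. These ranges overlap almost fully, and the log2 difference was 0.11 (95% interval -0.32 to 0.53, edgeR adjusted p = 0.674) in WT, 0.02 (-0.41 to 0.44, adjusted p = 0.954) in KO and 0.20 (-0.23 to 0.62, adjusted p = 0.414) in dCIS. Set against library totals instead, Cd36 was called lower after LPS in each genotype, by -0.70, -0.79 and -0.56 (adjusted p = 0.00445, 0.00165 and 0.0189).

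Scarb1, the receptor SR-BI for HDL that moves cholesteryl esters across the membrane, fell under each of the 4 scalings tried. Its level was 91.6, 105, 92.7 and 110.4 CPM in untreated WT libraries against 34.9, 38.6, 34.3 and 40.5 CPM after LPS, without overlap. The log2 change was -1.43 (SE 0.144, edgeR adjusted p = 2.39e-09) in WT, -1.63 (adjusted p = 2.29e-10) in KO and -1.25 (adjusted p = 2.38e-08) in dCIS, and -2.24, -2.45 and -2.02 with library totals. Scarb2 encodes LIMP-2, a lysosomal membrane protein that carries the enzyme glucocerebrosidase to lysosomes. It went from 90.6, 98.7, 107 and 118.7 CPM to 205.7, 192.7, 198.4 and 201.5 CPM in WT, and the groups stood apart in each genotype. With TMM it rose by 0.94 (SE 0.116, edgeR adjusted p = 7.95e-08), 0.93 (adjusted p = 1.05e-07) and 0.87 (adjusted p = 3.25e-07) on the log2 scale in WT, KO and dCIS. Library totals left 0.14, 0.10 and 0.10, and no call (adjusted p = 0.248, 0.387 and 0.393).

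Cd68 (macrosialin), a heavily glycosylated protein of late endosomes and lysosomes that is used as a macrophage marker, varied by at most 9.16% (coefficient of variation) within a group. Untreated WT libraries held 1746, 1865, 2008 and 1926 CPM and LPS libraries 2292, 2128, 2316 and 2474 CPM, close to each other but without overlap. It was called higher in WT by 0.29 (SE 0.0957, edgeR adjusted p = 0.0111) and in dCIS by 0.43 (adjusted p = 0.000365), and not in KO (0.21, adjusted p = 0.0562). With library totals all 3 genotypes were called lower instead, at -0.52, -0.61 and -0.34, and upper quartile scaling (0.01 in WT, 0.14 in dCIS) or no filter (0.12 and 0.28) ended both calls. In KO same-numbered libraries correlated in their deviations from the group mean at 0.155 to 0.296. With the number as a block within genotype, the TMM value in KO was 0.21 (edgeR adjusted p = 0.0182). Cd68 in KO also passed with the stricter filter (0.22, edgeR adjusted p = 0.043). It passed too without KO untreated library 2 (0.27, edgeR adjusted p = 0.0219) or KO LPS library 4 (0.25, edgeR adjusted p = 0.0399). These libraries held the highest untreated value (2110 CPM) and the lowest LPS value (2021 CPM) of Cd68 in KO. Leaving out either had to enlarge the rise, so these 2 fits are no test of it.

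Lrp1, a large endocytic receptor of remnant lipoproteins, apolipoprotein E and protease complexes, fell after LPS in WT and KO. In WT it went from 1055, 975.3, 969.2 and 1116 CPM to 716.5, 566.7, 517.3 and 751.1 CPM, and in KO from 1884, 1629, 1553 and 1737 to 1188, 881.4, 880.8 and 891 CPM. In both genotypes the highest LPS library stayed below the lowest untreated one. The log2 change was -0.69 (SE 0.164, edgeR adjusted p = 0.00069) in WT and -0.82 (adjusted p = 9.69e-05) in KO. In dCIS, where untreated libraries at 948.1, 1368, 705 and 926 CPM overlapped LPS libraries at 793.5, 994.7, 620.8 and 727.1 CPM, the change of -0.33 was not called (adjusted p = 0.0782). Without dCIS untreated library 3 it was -0.56 (edgeR adjusted p = 0.00215) and without dCIS LPS library 2 it was -0.47 (edgeR adjusted p = 0.0188). These libraries held the lowest untreated value (705 CPM) and the highest LPS value (994.7 CPM) of Lrp1 in dCIS. Leaving out either had to enlarge the fall, so these fits are no test of it. With library totals all 3 genotypes passed, at -1.50, -1.65 and -1.11, and dCIS passed too with upper quartile factors (-0.63) and no filter (-0.48).

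Lpl encodes lipoprotein lipase, which macrophages secrete and which cuts the triglycerides of lipoproteins at the cell surface. WT libraries held 3008, 3956, 3853 and 2977 CPM untreated and 3239, 3519, 3129 and 2315 CPM after LPS, with wide overlap. The log2 difference was -0.18 (95% interval -0.55 to 0.19, edgeR adjusted p = 0.41) in WT and -0.21 (-0.58 to 0.16, adjusted p = 0.32) in KO. In dCIS it was called lower by -0.46 (adjusted p = 0.028), although its libraries overlap: 4304, 2918, 4745 and 4102 CPM untreated against 3588, 2440, 2820 and 2845 CPM. That call was lost without dCIS untreated library 1 or 4 or dCIS LPS library 2, 3 or 4 (-0.38 to -0.45, adjusted p = 0.0513 to 0.0897). Scaled by library totals, Lpl was called lower in WT, KO and dCIS, at -0.98, -1.02 and -1.22. It was also called lower in WT and KO with upper quartile factors (-0.45 and -0.47) and with no filter (-0.34 and -0.36).

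Plin2 encodes the perilipin that coats lipid droplets and is itself degraded when not bound to one. Untreated WT libraries had 735.8, 855.2, 615.9 and 515 CPM and LPS libraries 1108, 1062, 983.1 and 872.3 CPM, the lowest of the second just above the highest of the first. The log2 rise was 0.56 (SE 0.13, edgeR adjusted p = 0.000482) in WT, 0.42 (adjusted p = 0.00621) in KO and 0.29 (adjusted p = 0.0494) in dCIS, where the groups overlap. In dCIS it was lost without any one of untreated libraries 2, 3 and 4 and LPS libraries 1, 2 and 3 (0.23 to 0.32, adjusted p = 0.0507 to 0.161). Under library totals the direction turned in each genotype, to -0.25 (adjusted p = 0.0941), -0.40 (adjusted p = 0.01) and -0.46 (adjusted p = 0.00305), and upper quartile scaling ended the calls (0.29, 0.16 and 0.01). With no filter the KO and dCIS calls of Plin2 were lost (0.27 and 0.15), and the dCIS call also with RLE factors, DESeq2 or the compared groups alone (adjusted p = 0.0503 to 0.0777). Without dCIS LPS libraries 3 and 4, the calls of Lpl and Plin2 in dCIS were both lost (adjusted p = 0.128 and 0.135), while the other 6 of that genotype passed.

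**Figure D2:**
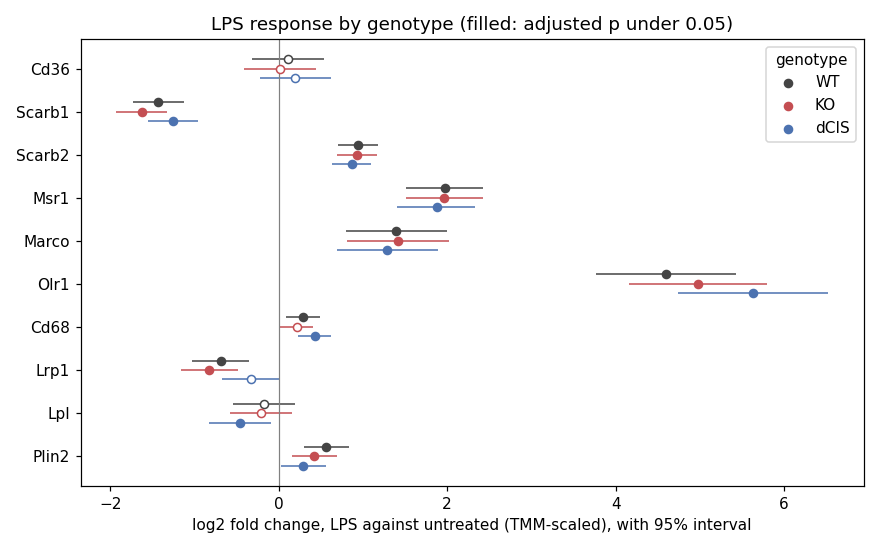
Log2 fold change of LPS against untreated (horizontal axis, TMM scaling) for the 10 genes in WT, KO and dCIS cells, with 95% intervals; filled points passed an adjusted p of 0.05. Olr1 lies between 4.60 and 5.63, Msr1 between 1.87 and 1.97 and Scarb1 between -1.63 and -1.25; with library totals as scaling, Cd36, Cd68 and Plin2 lie below 0 in each genotype.

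The direction of some of these values depends on how the libraries are set equal. TMM factors were 1.287 to 1.364 in untreated and 0.6945 to 0.8263 in LPS libraries, so CPM on library totals move by most of a log2 unit between the treatments. With library totals the median log2 change of all tested genes was -0.80 in WT, -0.80 in KO and -0.81 in dCIS; with upper quartile factors it was -0.27, -0.24 and -0.34. Against these medians Cd36 in WT, at -0.70 with library totals, was close to the typical gene, and Cd68 (-0.52) and Plin2 (-0.25) were above it. This repeats the TMM result and is no separate evidence, because a change of factors shifts all genes by about the same amount. Msr1, Marco, Olr1 and Scarb2 lay above 0, and Scarb1, Lrp1 and Lpl below 0, under TMM, RLE, upper quartile and library total scaling in all 3 genotypes. Which scaling fits the RNA content of these cells was not tested.

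**Figure D3:**
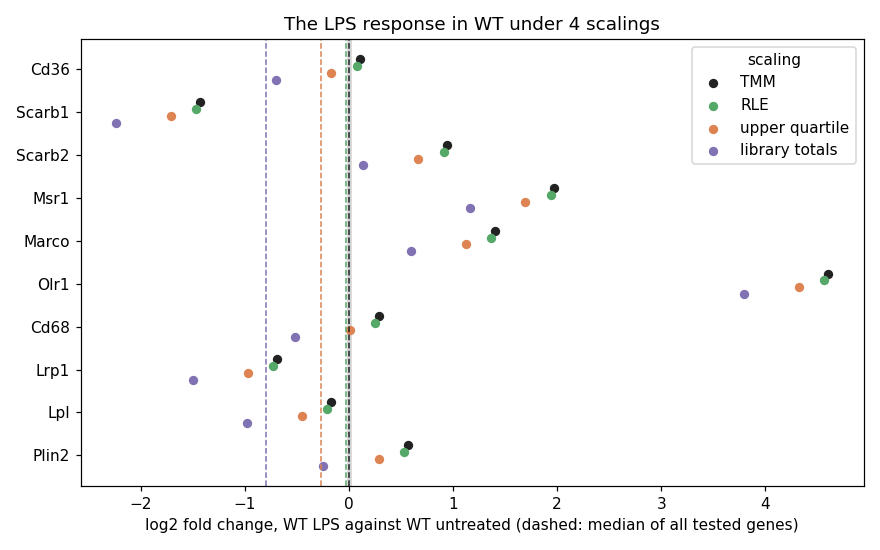
Log2 fold change of LPS against untreated WT cells (horizontal axis) for each of the 10 genes under 4 scalings of the libraries (colours), with the median of all tested genes as a dashed line in the same colour. Cd36 moves from 0.11 with TMM to -0.70 with library totals, Cd68 from 0.29 to -0.52 and Plin2 from 0.56 to -0.25, while Msr1, Marco, Olr1 and Scarb2 stay above 0.

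KO against WT. KO cells had more Lrp1 transcript than WT cells, and no other gene of the 10 was called. In untreated cells Lrp1 averaged 1701 ± 144 CPM in KO and 1029 ± 69.9 CPM in WT (SD, n = 4), and the lowest KO library, at 1553 CPM, was above the highest WT library, at 1116 CPM. The log2 difference was 0.73 (SE 0.164, edgeR adjusted p = 0.0158), higher in 4 of 4 libraries. It no longer passed without WT untreated library 2 (0.70, adjusted p = 0.072), WT untreated library 3 (0.70, adjusted p = 0.0647) or KO untreated library 1 (0.67, adjusted p = 0.0517). So 1 of 10 genes was called, where 7.31% of all tested genes were; libraries of the groups did not overlap for 1 of 10, against 21.5% of all genes. The 8 macrophage markers summed to 18100 to 19600 CPM in untreated KO and 17100 to 19900 CPM in untreated WT libraries. Of these 8 markers, 7 had a positive and 1 (Lyz2) a negative log2 difference, from -0.06 (Lyz2) to 0.64 (Mertk). Adgre1 (0.43, edgeR adjusted p = 0.0683) and Csf1r (0.54, edgeR adjusted p = 0.0902) were at an unadjusted p under 0.05, and edgeR called 0 of the 8. For Adgre1 and Csf1r, as for Lrp1, each KO library lay above each WT library, while those of the other markers overlapped. The part of the 8 markers in the Lrp1 result was not tested.

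After LPS Lrp1 stood at 960.2 ± 152 CPM in KO and 637.9 ± 113 CPM in WT, and again the libraries did not overlap. The log2 difference of 0.59 (SE 0.164, edgeR adjusted p = 0.0499) sat at the threshold. Leaving out WT LPS library 1, 2 or 3 or any 1 of the KO LPS libraries gave 0.47 to 0.65 with adjusted p = 0.0609 to 0.221, and library totals or upper quartile scaling also ended the call. This was 1 of 10 genes, against 2.74% of all tested genes. Scarb2 was also without overlap after LPS (207.8 to 259.3 CPM in KO, 192.7 to 205.7 CPM in WT), but its difference of 0.19 was not called (adjusted p = 0.351); 18.3% of all genes had groups that did not overlap. The osteoclast markers summed to 7.81 to 12.7 CPM in KO and 15.1 to 17.5 CPM in WT after LPS, without overlap. Of the 3 tested, Acp5 was called lower in KO (-0.79, edgeR adjusted p = 0.0363) and Ctsk was lower without a call (-0.29, adjusted p = 0.457). Dcstamp went the other way, higher in KO without overlap and without a call (2.71, adjusted p = 0.213). Its level was low, at 0.303 ± 0.209 CPM in KO and 0.039 ± 0.045 CPM in WT. Calcr was not among those tested, and the part of these markers in the Lrp1 result was not tested. Of the 8 macrophage markers after LPS, 5 had a positive and 3 a negative difference and edgeR called 0, with Adgre1 (0.35) and Mertk (0.71) at an unadjusted p under 0.05. The LPS response of Lrp1 did not pass as different between KO and WT (-0.14, 95% interval -0.61 to 0.34, edgeR adjusted p = 1).

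The KO libraries numbered 2 stood apart in several of the 10 genes, for Cd36 in both treatments. Cd36 was 971.7 CPM there against 1607 to 2095 CPM in the other untreated KO libraries, and 852.6 against 1630 to 2293 CPM after LPS. Untreated Msr1 was 153.1 CPM there against 359.5 to 519.9 CPM, and untreated Scarb2 159.7 against 102.2 to 112.6 CPM. With all libraries, Cd36 differed from WT by 0.41 untreated (adjusted p = 0.212) and 0.32 after LPS (adjusted p = 0.389), and Lpl by 0.39 (adjusted p = 0.178) and 0.35 (adjusted p = 0.26). Without both libraries numbered 2, a choice made after their values were seen, Cd36 was called higher in KO by 0.59 untreated (adjusted p = 0.01) and by 0.54 after LPS (adjusted p = 0.0302). Lpl was then called in untreated cells (0.53, adjusted p = 0.0473) and not after LPS (0.48, adjusted p = 0.097). These libraries held the lowest KO values of Cd36 and of Lpl (3148 CPM untreated, 2848 CPM after LPS). Leaving them out therefore had to raise both differences, and the calls of Cd36 and Lpl are no test of them. Lrp1 passed in untreated cells (0.75, adjusted p = 0.0166) and not after LPS (0.63, adjusted p = 0.0565).

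dCIS against WT. No gene of the 10 was called in untreated cells or after LPS, against backgrounds of 0.0542% and 0.258%. With unadjusted p under 0.05, edgeR gave 1 gene in each treatment, and DESeq2 called 0 in both. That gene was Marco. Untreated dCIS libraries held 62.05, 51.8, 145.8 and 94.8 CPM and WT libraries 156.9, 133.7, 194.7 and 203.5 CPM, with overlap through library 3. After LPS the dCIS libraries, at 157.8, 168.8, 266.2 and 274.4 CPM, all lay below the WT range of 341.5 to 557.6 CPM; 6.86% of all genes had groups that did not overlap there. The log2 difference was -0.96 untreated (95% interval -1.56 to -0.36, edgeR adjusted p = 0.953) and -1.07 after LPS (-1.66 to -0.47, adjusted p = 0.108), and neither passed. With no filter the sizes were nearly the same (-0.97 and -1.04), but edgeR called both (adjusted p = 4.26e-12 and 1.43e-14). All genes called then went from 8 to 80 untreated and from 38 to 277 after LPS. The libraries and their overlap are the same in that fit, so these small p-values do not reflect a clearer difference, and their cause was not tested. Without dCIS LPS libraries 3 and 4 the log2 difference after LPS was -1.47 (adjusted p = 0.238). Marco's libraries 3 and 4 were both above libraries 1 and 2 in 5 of 6 groups, the KO LPS group being the exception. Lrp1 showed no such difference in untreated cells (-0.06, 95% interval -0.40 to 0.28, adjusted p = 1). After LPS Lrp1 was higher in dCIS than in WT by 0.30 without a call (95% interval -0.04 to 0.63, edgeR adjusted p = 0.456).

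**Figure D4:**
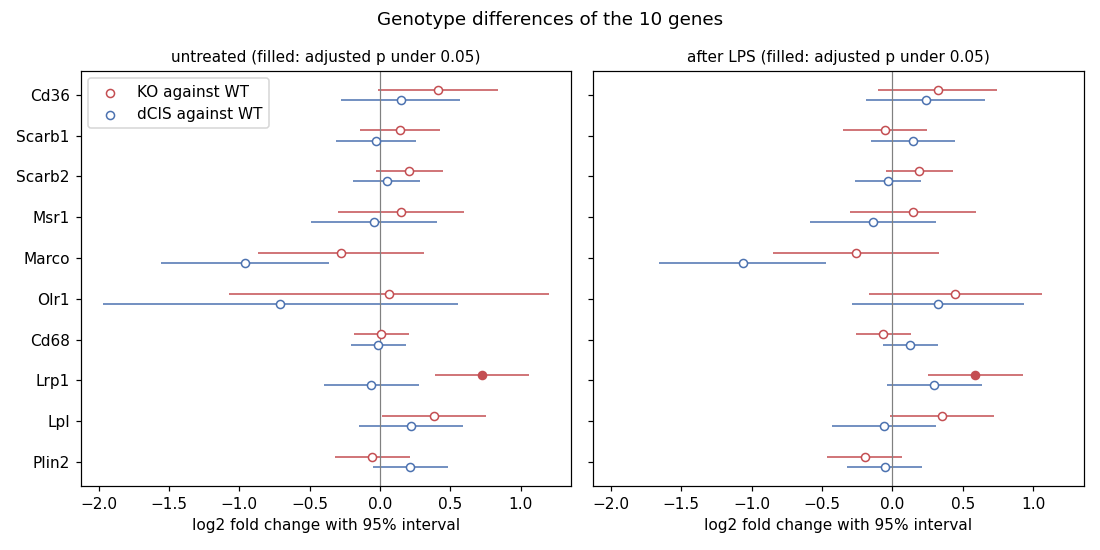
Log2 fold change of KO and of dCIS against WT (horizontal axes, TMM scaling) with 95% intervals for the 10 genes, untreated on the left and after LPS on the right; filled points passed an adjusted p of 0.05. Lrp1 in KO is the one gene called (0.73 and 0.59), and Marco in dCIS has the lowest values (-0.96 and -1.07) without a call.

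KO against dCIS and the LPS responses. The KO and dCIS comparisons share the WT libraries, so the mutants were also set against each other. In untreated cells Lrp1 was higher in KO by 0.79 (SE 0.164, edgeR adjusted p = 0.00309), with libraries of 1553 to 1884 CPM against 705 to 1368 CPM, and it was the 1 of 10 genes called, where 21.3% of all genes were. Marco was higher in KO by 0.68 without a call (adjusted p = 0.0914). Same-numbered libraries of these groups correlated in their deviations from the group mean at 0.114 to 0.359, but libraries of different number were not compared. With the number as a block shared by all 6 groups, some of which it does not pair, Marco differed by 0.70 (edgeR adjusted p = 0.0151). Marco also passed without KO untreated library 2 (0.85, edgeR adjusted p = 0.0434) or dCIS untreated library 3 (1.03, edgeR adjusted p = 0.0313). These libraries held the lowest untreated KO value (88.54 CPM) and the highest untreated dCIS value (145.8 CPM) of Marco. Leaving out either had to widen the difference, so these fits are no test of it. After LPS 0 of 10 passed, against 2.18% of all genes, with 2 at an unadjusted p under 0.05 in edgeR (Marco, 0.81, and Lpl, 0.41) and 0 calls in DESeq2. Lrp1 was then higher in KO than in dCIS by 0.29 without a call (edgeR adjusted p = 0.319), and the libraries overlapped. No gene of the 10 had a called difference in its LPS response between KO and WT or between dCIS and WT, where 0.0203% and 0% of all genes did; edgeR gave 0 at an unadjusted p under 0.05 in both, and DESeq2 called 0. The widest interval was that of Olr1, whose response in dCIS was 1.03 above that in WT (95% interval -0.38 to 2.44, adjusted p = 0.726).

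Related genes in WT after LPS. The 10 genes were set beside 8 lists of related genes, together 112 tested genes, of which 47 were called higher and 37 lower (75%, against 61.4% of all genes). The list of other scavenger receptors is mixed: it also holds the antibody receptor Fcgr2b and the sensors Tlr2, Tlr6 and Cd14. Of its 14 tested genes, 7 were higher and 2 lower, with a median log2 change of 0.47, which is thus not a value for scavenger receptors alone. The inhibitory antibody receptor Fcgr2b rose from 107 ± 16.3 to 1030 ± 114 CPM (3.27, edgeR adjusted p = 8.42e-15). The scavenger receptor Scarf1 rose by 2.34 (adjusted p = 2.08e-12) and the TLR2 partner Tlr6 by 1.80 (adjusted p = 3.04e-15). Among 15 lipoprotein receptors and partners, 4 were higher and 7 lower, with a median of -0.36. Lrp4 rose from 5.99 ± 0.422 to 45.2 ± 2.31 CPM (2.91, adjusted p = 7.68e-18) and Lrp10 by 1.19 (adjusted p = 1.87e-13). Of 9 genes for lysosomal membrane proteins and cholesterol export, 5 were higher and 2 lower (median 0.23), among them Lamp2 (1.14), the cholesterol carrier Npc2 (1.08) and Tmem192 (0.79, but -0.02 with library totals).

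Lipases and their regulators were split, with 4 of 12 higher and 4 lower (median 0.14). The endothelial lipase gene Lipg went from 0.238 to 0.697 CPM in untreated WT libraries to 434 to 549 CPM after LPS, a log2 change of 10.28 (SE 0.252, edgeR adjusted p = 4.4e-21). Lipe, hormone-sensitive lipase, rose by 1.35, and Sel1l, which helps Lpl leave the endoplasmic reticulum, by 0.61 with TMM but -0.20 with library totals. Fatty acid uptake, binding and activation had 7 of 15 higher and 4 lower (median 0.21), with the acyl-CoA synthetase Acsl1 at 2.51, the binding protein Fabp3 at 3.59 and the mitochondrial dehydrogenase Acadm at -1.51. Droplet coat and storage genes had 4 of 11 higher and 5 lower (median -0.31). There, unlike Plin2, Plin3 was lower by -1.27, the phosphatidate phosphatase Lpin1 fell from 17.6 ± 3 to 0.499 ± 0.139 CPM (-5.12, adjusted p = 6.43e-11), and its relative Lpin2 rose by 1.02.

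Transcription factors of these genes had 9 of 19 higher and 7 lower (median 0.20). Cebpa fell from 65.1 ± 10.5 to 2.33 ± 0.521 CPM (-4.80, edgeR adjusted p = 1.95e-15) and Tfeb, a regulator of lysosomal genes, by -2.39, while Atf3 rose by 1.73. Receptors and bridges for apoptotic cells had 7 of 17 higher and 6 lower (median 0.31), with the receptor kinase Axl at 4.65, the transglutaminase Tgm2 at 2.22 and Cd300a at -2.15. With library totals the medians of the 8 lists ran from -1.17 to -0.336, beside -0.80 for all genes. The calls were 5 higher and 7 lower for the mixed list of other scavenger receptors and 2 higher and 11 lower for the lipoprotein receptors. The other lists then had 2 and 8 (lipases), 3 and 9 (fatty acids), 2 and 8 (droplets), 2 and 6 (lysosome), 4 and 12 (transcription factors) and 3 and 9 (apoptotic cell receptors). Of all 14757 tested genes, 11592 were called with library totals.

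**Figure D5:**
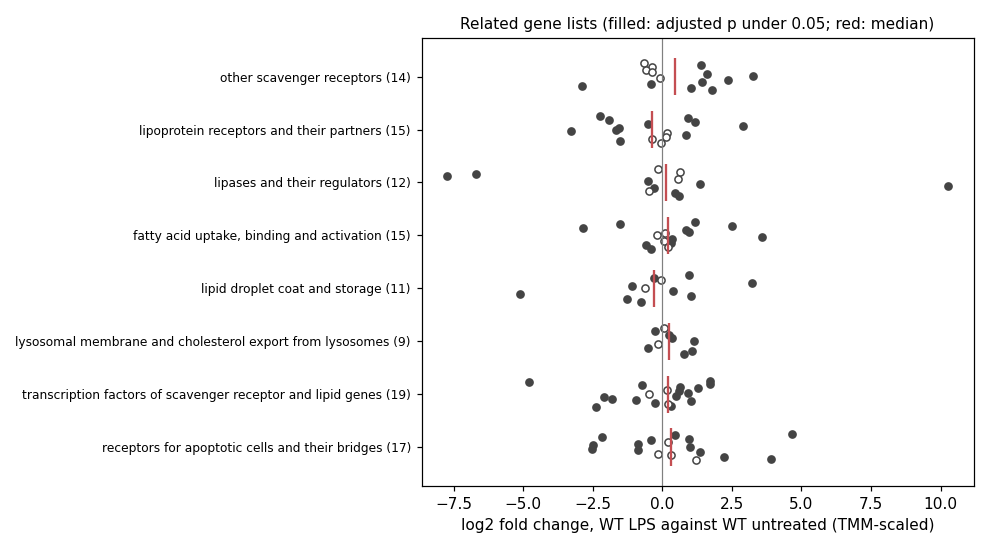
Log2 fold change of LPS against untreated WT cells (horizontal axis, TMM scaling) for the tested genes of 8 related lists, their number in brackets; filled points passed an adjusted p of 0.05 and the red bar is the list's median. Medians lie between -0.36 and 0.47 with TMM and all below 0 with library totals, and Lipg, at 10.28, is the highest point.

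Related genes between genotypes. In untreated cells 5 of the 112 genes were higher and 2 lower in KO than in WT (6.25%, against 7.31% of all genes). Higher were Cpt1a, which lets fatty acids into mitochondria (72.3 ± 11 against 44 ± 3.3 CPM, 0.72, edgeR adjusted p = 0.00847), Dock1 (0.57), the lysosomal cholesterol exporter Npc1 (0.46), the transcription factor Mitf (0.46) and Lpin2 (0.37). Lower were the fatty acid binding protein Fabp4 (101 ± 18.1 against 142 ± 9.57 CPM, -0.49, adjusted p = 0.0153) and the factor Cebpb (-0.55). Cpt1a passed in each of the 8 fits that left out 1 library, whereas the others all lost their call without WT untreated library 2 (adjusted p = 0.0647 to 0.126) and without WT untreated library 3 (adjusted p = 0.058 to 0.0942). After LPS 4 were higher in KO and 0 lower (3.57%, against 2.74%): Acsl1 (261 ± 14.7 against 174 ± 20.7 CPM, 0.59, adjusted p = 0.0195), Cpt1a (0.58), Mitf (0.41) and Lpin2 (0.36). These 4 calls were lost without WT LPS library 2 (adjusted p = 0.0892 to 0.154) and without WT LPS library 3 (adjusted p = 0.106 to 0.205).

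Between dCIS and WT, 0 of 112 genes were called untreated in edgeR (8 at an unadjusted p under 0.05). After LPS 1 was called, Nr1h3, the gene of the oxysterol receptor LXRα. It stood at 143 ± 29.7 CPM in dCIS and 60.3 ± 8.46 CPM in WT (1.25, SE 0.199, edgeR adjusted p = 0.00281), higher in 4 of 4 libraries, and at 1.46 (adjusted p = 0.00436) without dCIS LPS libraries 3 and 4. In untreated cells its means were 63.5 ± 18.7 and 31.7 ± 6.37 CPM. KO against dCIS gave 18 higher and 7 lower untreated (22.3%, against 21.3% of all genes). Higher in KO were Colec12, Fcgr2b, Tlr6, Lrp6, Sorl1, Sort1, Lipg, Sel1l, Acsl1, Acsl4, Cpt1a, Lpin2, Npc1, Srebf2, Tfe3, Mitf, Itgav and Dock1, from 0.23 (Tfe3) to 1.75 (Lipg). Lower were Snx17, Fabp4, Npc2, Cd63, Tmem192, Cebpb and Nr1h3, from -1.22 (Nr1h3) to -0.28 (Snx17). The value of Lipg rests on very low levels, 0.633 ± 0.346 CPM in untreated KO and 0.187 ± 0.119 CPM in untreated dCIS cells, whose libraries overlapped. After LPS its group means were 507 to 545 CPM. Without dCIS untreated library 3, Fcgr2b, Lrp6, Snx17, Npc2, Cd63, Tmem192, Srebf2, Tfe3 and Itgav lost their calls (adjusted p = 0.0602 to 0.215). A fit of the compared groups alone ended 14 of the 25 calls (adjusted p = 0.051 to 0.198): those same 9 genes and Lipg (1.72, adjusted p = 0.0623), Tlr6 (0.35, 0.0581), Sel1l (0.32, 0.0693), Fabp4 (-0.39, 0.0766) and Npc1 (0.51, 0.051). After LPS Colec12 (1.16) and Acsl1 (0.62) were higher and Nr1h3 (-1.44) and Cebpb (-0.53) lower; without dCIS LPS libraries 3 and 4 only Nr1h3 among these 4 passed (-1.65, adjusted p = 0.000134), and Colec12 and Cebpb also lost their calls with the compared groups alone (adjusted p = 0.08 and 0.0655). No list gene had a called difference in its LPS response in edgeR, with 1 (KO) and 5 (dCIS) at an unadjusted p under 0.05.

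Genes with the most similar pattern over the 6 group means were found by the root mean square difference of centred log2 CPM. For Cd36, which changed little, these were Slc38a7 (0.0418), Gak (0.0484) and Dnajc5 (0.0503), and for Msr1 they were Hinfp (0.0409), Rnf139 (0.0488) and Snx2 (0.0557). Lpl was nearest to Cep120 (0.0559), Slc24a3 (0.0593) and Alkbh8 (0.062), and Plin2 to Zranb3 (0.0447), Ctsl (0.0474) and Atp5b (0.0484). Marco had no gene as near: Mthfsl (0.311), Rab5a (0.341) and Plpp3 (0.35) were the closest.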

How the data were processed

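The deposited table holds raw counts per gene for 24 libraries of mouse BMDM, made by the authors from RNA captured on oligo-dT beads, per the labels' protocols. The submitters' processing notes name STAR, edgeR and the build mm39; the counting program, strand setting, annotation and versions were not given in the sources used here, so reads of antisense or near-identical genes cannot be told apart. Of 56941 IDs, 51948 (91.2%) matched a symbol. From the deposited counts, CPM, fold changes and tests were computed here with edgeR 4.0.16 in R 4.3.3 (limma 3.58.1): the filterByExpr filter (minimum count 10, minimum total 15), TMM factors, 1 quasi-likelihood fit of all 24 libraries with a mean per group, and adjusted p over 14757 genes. The fit was tested on simulated counts first. Exon lengths, the bases covered by any annotated exon of a gene, came from GENCODE M21 and promoters from RefSeq, both of another build than the counts. Protein sequences were not used here. A chi-square test on counts found each library different from the others of its group, so each was counted.

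Named genes are the 10 members, Hdac9, the 3 genes of each list with the smallest p after LPS in WT, list genes called between genotypes (1 gene is not reported here), and the 3 genes of most similar pattern for Cd36, Msr1, Marco, Lpl and Plin2 (average of at least 5 CPM). The members and lists were chosen with earlier results of these data known. Replicate numbers were taken to pair libraries where all same-numbered correlations of deviations were over 0.1: within WT (0.113 to 0.15), within KO (0.155 to 0.296) and between untreated KO and dCIS (0.114 to 0.359). Correlations between libraries of different number were not computed, so the pairing is a working rule that was not tested. The shared replicate block fitted the number over all 6 groups, including those it does not pair. Alternatives were RLE, upper quartile and library total scaling, no filter, a filter of 1 CPM in 4 libraries, fits of the compared groups alone, replicate blocks, DESeq2 1.42.0 and leaving out libraries; library totals, upper quartile scaling and the fit without both KO libraries numbered 2 were added after seeing the data.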

Additional observations from a re-analysis of the deposited data

Results flagged for a closer look

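In 3 of the 60 sets of 4 libraries (10 genes in 6 groups), 1 library lay far from the rest: its gap to the nearest, as a share of the group's range, exceeded the 95% critical value of Dixon's test for 4 values. Chance gives about 1 in 20. Cd36 in untreated dCIS cells was 1606 CPM in library 4 and 1257 to 1273 CPM in the others, a share of 0.953. Scarb2 in untreated dCIS cells was 120.9 CPM in library 2 and 100.5 to 103.9 CPM in the others, a share of 0.833. Lrp1 in KO cells after LPS was 1188 CPM in library 1 and 880.8 to 891 CPM in the others, a share of 0.967. Without that library the difference of Lrp1 between KO and WT after LPS was 0.47 (adjusted p = 0.182 in edgeR).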

How the results depend on the processing

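Scaling by library totals turned the LPS values of Cd36 (-0.70 in WT, -0.79 in KO, -0.56 in dCIS), Cd68 (-0.52, -0.61, -0.34), Plin2 (-0.25, -0.40, -0.46), Sel1l (-0.20 in WT) and Tmem192 (-0.021 in WT); its median over all genes, -0.80 in WT, shows the shift. The count of the 10 genes called for KO against WT after LPS was 0 with library totals and 0 with upper quartile factors. Over all genes the calls were then 413 and 431, against 405 in the main fit. With no filter the count of the 10 genes was 3 for KO against WT untreated, 1 for dCIS against WT untreated, 1 after LPS, 2 for KO against dCIS untreated and 2 after LPS. Over all genes these comparisons then had 1556, 80, 277, 2992 and 850 calls, against 1079, 8, 38, 3147 and 322 in the main fit. The cause of these shifts was not tested. Without both KO libraries numbered 2, KO against WT untreated had 3 of the 10 and KO against dCIS untreated 3, beside 1004 and 2839 calls over all genes. Leaving out 1 library gave counts of 0 to 1 for KO against WT in either treatment, 1 to 2 for KO against dCIS untreated, 6 to 8 for LPS in dCIS, 7 to 8 in KO and 8 to 8 in WT, and 0 to 0 elsewhere. Of 3197 values of single genes under all alternatives, 2940 kept their direction and side of the threshold, 197 lost a call, 36 gained one, 13 moved and 11 turned.

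With a replicate block shared by the groups, the counts were 1 for dCIS against WT untreated, 1 after LPS, 2 for KO against dCIS untreated and 1 after LPS. Over all genes the calls were then 34, 91, 3911 and 751, against 8, 38, 3147 and 322 in the main fit. LPS in dCIS had 9 of the 10 with the shared block, with Lrp1 added (-0.33, adjusted p = 0.0405). It had 10 with the block within genotype, with Lrp1 (-0.31, adjusted p = 0.00241) and Cd36 (0.20, adjusted p = 0.0381) added. Over all genes the calls were 9799 and 9995, against 9547 in the main fit. Same-numbered correlations within dCIS ran from 0.0396 to 0.339. The gene added for dCIS against WT was Marco (-1.02, adjusted p = 0.0337 untreated; -1.08, adjusted p = 0.0138 after LPS), but numbers do not pair these groups: same-numbered correlations ran from -0.154 to 0.157 untreated and from 0.015 to 0.154 after LPS. Precision is limited for Olr1, with 2 to 15 counts in untreated libraries.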
